A study of Mus musculus with 4 samples.

Results

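The Rnf genes are a family of genes named for the RING finger, a fold that holds zinc and lets a protein act as a ubiquitin ligase. They were taken from the deposited expression table as the rows whose symbol is Rnf followed by a number and any further letters or digits, leaving out 1 gene that matches the pattern. This gave 77 of the 25965 listed genes. The table holds 4 libraries of round spermatids, the haploid cells that meiosis leaves before they elongate into sperm, obtained by flow sorting from testis of mice on the outbred ICR background. The groups compared were 2 libraries labelled Wfdc15a-/- (knockout) and 2 labelled Wfdc15a+/- (heterozygote), which serve as controls and carry 1 altered allele themselves. The labels do not describe the altered allele, give no age and do not say whether the libraries of a group came from separate animals, so the p-values below measure only how far these libraries spread, and that spread may be technical.

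RING ligases take ubiquitin from a conjugating enzyme and pass it to a substrate, which marks that protein for the proteasome, for sorting into vesicles or for a signalling role. In round spermatids the best known member is RNF8, which ubiquitylates histones around DNA breaks and has been studied in mouse testis for its part in the ubiquitylation of histones before protamines replace them. Other members are known from testis, among them Rnf17, a Tudor-domain protein of germ cell granules, and Rnf151, a protein linked to acrosome formation.

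The RING is recognised by 8 cysteines and histidines that hold the zinc, and their spacing was searched for in the annotated coding sequence of each member. With C for cysteine and H for histidine, 43 of 77 members held the C3HC4 order, 29 held the C3H2C3 order, and 5 held neither at the spacing searched (Rnf216, Rnf41, Rnf144a, Rnf144b and Rnf125). The coding stretches between the first and the last zinc ligand are shown for 7 members on which the results below turn, as a view of how far the fold lets the sequence vary. They were read 5′ to 3′ on the coding strand from GENCODE M21 transcripts (mm10), with introns left out and the 8 zinc-ligand codons in capitals.
Rnf8 (chr17:29634739-29635901, plus strand, 2 exons): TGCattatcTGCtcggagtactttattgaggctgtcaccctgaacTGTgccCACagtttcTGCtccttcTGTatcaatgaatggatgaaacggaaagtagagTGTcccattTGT
Rnf4 (chr5:34350809-34351335, plus strand, 2 exons): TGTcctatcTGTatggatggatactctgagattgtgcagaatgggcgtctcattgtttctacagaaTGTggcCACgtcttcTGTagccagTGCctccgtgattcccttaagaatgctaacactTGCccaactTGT
Rnf151 (chr17:24717141-24717554, minus strand, 2 exons): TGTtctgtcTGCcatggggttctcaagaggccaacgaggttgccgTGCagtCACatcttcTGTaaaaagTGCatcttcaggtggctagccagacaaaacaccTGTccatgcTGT
Rnf5 (chr17:34602156-34603395, minus strand, 3 exons): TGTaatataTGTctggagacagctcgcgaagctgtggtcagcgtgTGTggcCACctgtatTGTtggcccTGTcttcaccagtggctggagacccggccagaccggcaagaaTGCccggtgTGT
Rnf133 (chr6:23649170-23649292, minus strand, 1 exon): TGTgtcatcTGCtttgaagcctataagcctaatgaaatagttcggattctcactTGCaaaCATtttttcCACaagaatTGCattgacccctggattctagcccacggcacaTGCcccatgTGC
Rnf148 (chr6:23654069-23654191, minus strand, 1 exon): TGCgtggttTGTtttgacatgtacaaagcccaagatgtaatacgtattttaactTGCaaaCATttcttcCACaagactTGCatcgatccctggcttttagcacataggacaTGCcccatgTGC
Rnf126 (chr10:79759216-79760892, minus strand, 2 exons): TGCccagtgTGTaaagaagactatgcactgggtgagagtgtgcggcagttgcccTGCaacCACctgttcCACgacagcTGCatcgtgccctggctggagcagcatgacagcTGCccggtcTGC
The upper 4 have the C3HC4 order and the lower 3 the C3H2C3 order, in which the codon for the fifth ligand is a histidine codon (CAC) in place of a cysteine codon. Rnf133 and Rnf148 lie 3592 bases apart on chromosome 6, and their stretches of 123 bases were identical at 91 positions (74.0%).

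The depth of the libraries was 21160061 and 11268909 reads for knockouts 1 and 2, against 5774112 and 33853604 reads for heterozygotes 1 and 2, so 1 read was worth 0.0473 and 0.0887 RPM (reads scaled to the library total) against 0.173 and 0.0295 RPM. In the libraries labelled knockout Wfdc15a itself was at 82.6 and 59.5 RPM, against 121 and 85.2 RPM in the heterozygous libraries. The gene was still read in both libraries labelled knockout, so its level does not check the labels, and every difference below is between libraries as labelled. All 10 round spermatid markers were read in every library, and their summed level was 3497 and 2957 RPM in knockout libraries, against 3395 and 4742 RPM in heterozygous libraries. The sum joins opposite differences, since Tnp1, Tnp2 and Prm1, genes of proteins that replace histones later on, lay below both heterozygous libraries in both knockout libraries, and Spaca1, Acrv1 and Izumo1, genes of the acrosome, lay above them. The log2 differences were −1.03, −1.69 and −1.42 for Tnp1, Tnp2 and Prm1, and 0 of the 10 passed in limma. The 18 macrophage markers summed to 404 and 139 RPM in knockout libraries, against 40.9 and 41.1 RPM in heterozygous libraries, where 7 and 2 of them had no read. Of the 17 macrophage markers tested, 16 lay above both heterozygous libraries in both knockout libraries. The 6 Leydig cell markers summed to 35.5 and 15.7 RPM in knockout libraries, against 6.41 and 3.16 RPM in heterozygous libraries, and the 6 spermatogonial markers to 84.9 and 72.6 RPM in knockout libraries, against 56.6 and 49.0 RPM in heterozygous libraries. The 6 Sertoli cell markers summed to less than 10 RPM in every library.

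Most Rnf genes were read in these cells. At least 1 read was present in every library for 69 of 77 members (89.6%), against 65.6% of all listed genes. A level of 1 RPM in at least 2 libraries was reached by 67 members (87.0%), against 61.2% of all listed genes, and these 67 were tested. By mean RPM over the 4 libraries, 19 members lay at 100 RPM or more, 26 between 10 and 100 RPM, 20 between 1 and 10 RPM and 12 under 1 RPM. The members summed to 6645 and 6485 RPM in knockout libraries, against 6399.8 and 6918 RPM in heterozygous libraries, and the group ranges overlapped.

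Levels of different genes were compared per kilobase (kb) of merged annotated exons. The median member was at 4.01 RPM per kb and the median of the 22524 listed genes with a length was at 0.800 RPM per kb. Among tested genes alone the gap was narrower, with medians of 7.05 RPM per kb for members and 3.45 RPM per kb for all genes with a length. The highest was Rnf151, whose level was 467 and 345 RPM per kb in knockout libraries, against 229 and 339 RPM per kb in heterozygous libraries. Its mean of 345 RPM per kb exceeded that of 99.5% of listed genes. With the length of the longest coding transcript in place of merged exons, a choice made after the data were seen, Rnf32 came first and Rnf151 second, and 10 of the 12 highest members were shared.

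The second highest value was that of Rnf26, a ligase of the endoplasmic reticulum, but it cannot be credited to this gene. Its listed span on chromosome 9 runs from 44066327 to 44113517 and reaches 29304 bases beyond the GENCODE M21 gene, over Usp2, a deubiquitinase gene on the other strand. Rnf26 was listed at 914 and 707 RPM in knockout libraries, against 736 and 927 RPM in heterozygous libraries. Usp2 was listed at 896 and 692 RPM in knockout libraries, against 718 and 909 RPM in heterozygous libraries. Rnf26 thus exceeded Usp2 by 18.4 and 15.5 RPM in knockout libraries, against 18.2 and 18.05 RPM in heterozygous libraries, nearly the same amount each time. That remainder is 4.82 RPM per kb of Rnf26 exon on average, and 37 of the other 76 members have a higher level per kb. The sum of the members and the 19 members at 100 RPM or more given above include Rnf26 as listed. Without Rnf26 the members summed to 5731 and 5778 RPM in knockout libraries, against 5664 and 5992 RPM in heterozygous libraries. GENCODE M21 annotates a read-through gene, Gm49380, over this span, and it shares 56.6% of the exon bases of Rnf26.

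The other 10 of the 12 highest members were Rnf32, Rnf125, Rnf7, Rnf187, Rnf126, Rnf17, Rnf133, Rnf138, Rnf19a and Rnf181, in descending order. Their means ran only from 83.7 to 55.9 RPM per kb, and single libraries of these genes ran from 43.5 to 107 RPM per kb. Neighbours in this order did not differ beyond the spread of their libraries. Rnf32, a testis-expressed ligase, was at 79.5 and 78.9 RPM per kb in knockout libraries, against 102 and 73.7 RPM per kb in heterozygous libraries. Rnf7, the RING partner of a cullin, was at 65.4 and 58.5 RPM per kb in knockout libraries, against 104 and 58.7 RPM per kb in heterozygous libraries. Both had their highest value in heterozygote 1 and overlapped between the groups. Rnf4 ranked 16 and Rnf8 ranked 42 among the 77 members, at means of 35.2 and 3.62 RPM per kb. The merged exons of Rnf8 come to 11703 bases.

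**Figure D1:**
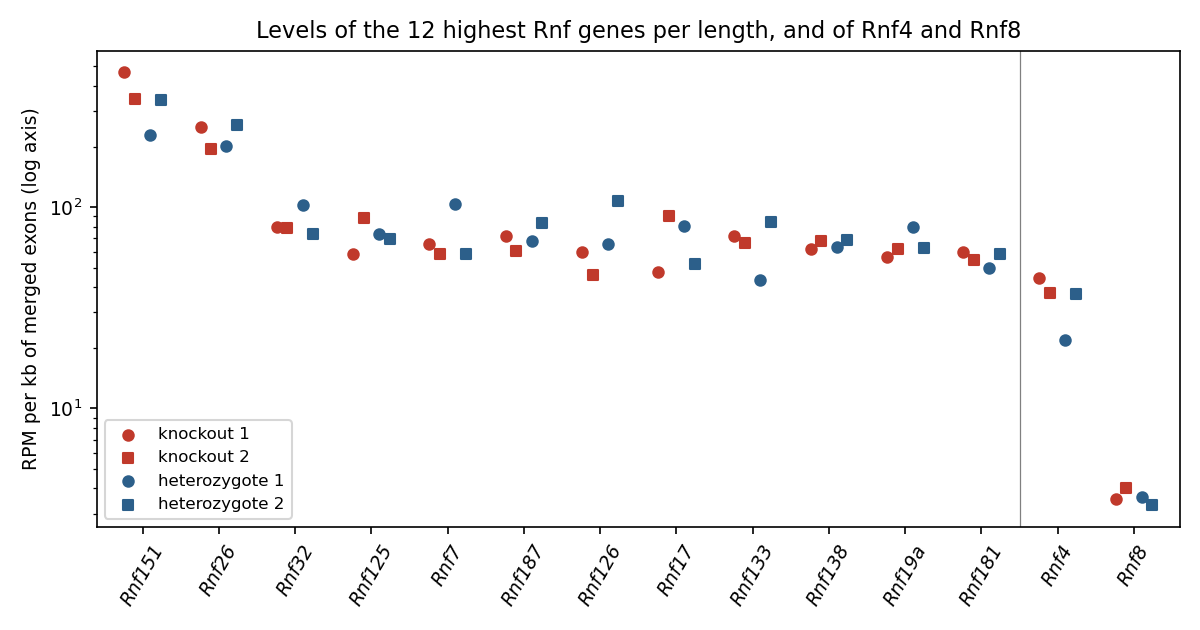
Level per length (RPM per kb of merged exons, log axis) of the 12 highest Rnf genes and, right of the line, of Rnf4 and Rnf8; red points are knockout and blue points heterozygous libraries, circles replicate 1 and squares replicate 2. Rnf151 lies highest, the 10 genes from Rnf32 to Rnf181 lie between 43.5 and 107 RPM per kb in every library, and the value of Rnf26 largely equals that of the overlapping gene Usp2.

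No member passed the test between the groups. In limma on the deposited log2 RPM with Benjamini-Hochberg adjustment over the 15888 genes tested, 0 of 67 members had an adjusted p under 0.05, as had 0% of all genes tested. The smallest adjusted p of a member was 0.382 in limma, and 0 members passed with voom on the reads recovered from the values. At an unadjusted p under 0.05, 3 members were higher in knockout libraries (4.48%, against 6.21% of all genes) and 1 was lower (1.49%, against 1.87% of all genes). Together these are 4 members (5.97%, against 8.08% of all genes), and voom gave 7 (10.4%, against 12.3% of all genes). Both knockout libraries lay above both heterozygous libraries for 14 members (20.9%, against 23.5% of all genes) and below them for 11 members (16.4%, against 15% of all genes). These shares lie near those of all genes tested. The median log2 difference, knockout minus heterozygote, was 0.01 over the tested members and 0.07 over all genes, and single members ran from −0.99 to 2.65.

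Of the 39 members with a mean of 20 RPM or more, 30 differed by less than 0.5 on the log2 scale (76.9%, against 85.8% of 6596 genes at that level), and the largest difference among the 39 was −0.70 (Rnf111). The median gap between libraries of the same group was 0.31 on the log2 scale between the knockout libraries and 0.48 between the heterozygous libraries, beside a median absolute group difference of 0.34. The heterozygous libraries lay further apart than the knockout libraries for 47 of 67 members. Heterozygote 1 was the lowest library for 18 of the 67 and the highest for 18. Heterozygote 2 was the lowest for 21, and knockouts 1 and 2 for 14 each. With 2 libraries a group, the exact permutation test of a single gene cannot go below p = 0.333.

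**Figure D2:**
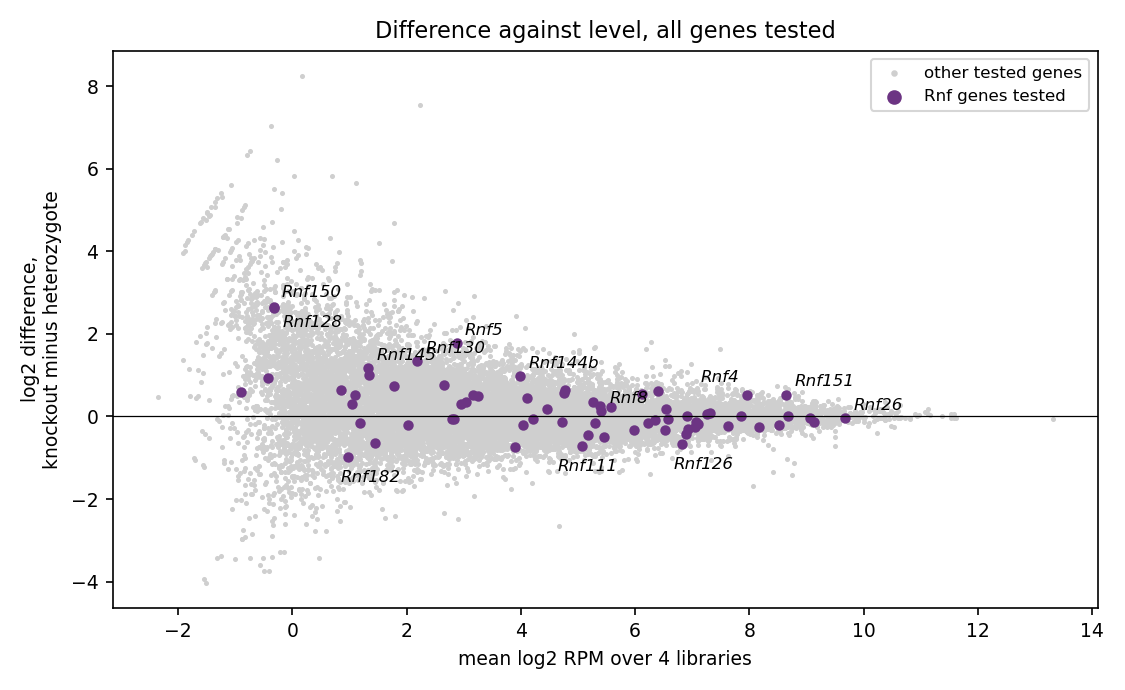
Log2 difference (knockout minus heterozygote) against mean log2 RPM over the 4 libraries for the 67 tested Rnf genes (purple) and all other tested genes (grey). Rnf genes with a mean of 20 RPM or more differ by −0.70 (Rnf111) to 0.63 (Rnf148), and 76.9% of them lie within 0.5 of 0, against 85.8% of all genes at that level. The largest differences, those of Rnf150 and Rnf128, are of genes with few reads.

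The members of the DNA damage and chromatin group are described first. Rnf8 was at 41.5 and 47.1 RPM in knockout libraries, against 42.3 and 38.5 RPM in heterozygous libraries, means of 44.3 ± 3.98 and 40.4 ± 2.62 RPM (SD, n = 2 each). The groups overlapped, and the log2 difference was 0.13 ± 0.28 (SE, 95% interval −0.49 to 0.76), with an adjusted p of 0.938 in limma and an exact two-sided permutation p of 0.667. Rnf8's listed span on chromosome 17 (29614790 to 29703359) reaches past the end of its GENCODE M21 gene at 29644991, over the listed genes Ftsjd2 and 1110021J02Rik, where a read-through gene, Gm28043, is annotated. Ftsjd2 was at 75.0 and 73.9 RPM in knockout libraries, against 79.2 and 79.1 RPM in heterozygous libraries. The listed gene 1110021J02Rik was at 21.8 and 27.2 RPM in knockout libraries, against 20.4 and 15.4 RPM in heterozygous libraries. Rnf8 exceeded 1110021J02Rik by 19.7 and 19.9 RPM in knockout libraries, against 21.8 and 23.2 RPM in heterozygous libraries. That remainder was lower in both knockout libraries, while the difference of Rnf8 as listed was positive. Ftsjd2 exceeded Rnf8 in every library. How many of the reads listed under Rnf8 came from exons past its own end cannot be told apart in these values, so the direction of Rnf8 itself is not settled.

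Rnf168, which extends the histone ubiquitylation that RNF8 starts, was at 43.1 and 44.4 RPM in knockout libraries, against 30.8 and 37.7 RPM in heterozygous libraries. Its groups did not overlap, and its log2 difference was 0.36 ± 0.29 (SE). Rnf20 and Rnf40 encode the partners of a ligase that ubiquitylates histone H2B. Rnf20 was at 6.99 and 10.7 RPM in knockout libraries, against 9.87 and 4.96 RPM in heterozygous libraries, with overlapping groups. Rnf40 was at 97.3 and 109 RPM in knockout libraries, against 142 and 135 RPM in heterozygous libraries, a log2 difference of −0.43 ± 0.24 (SE) with an adjusted p of 0.651 in limma. Here both knockout libraries were the lower ones, and the values within each group lay close together. Rnf138, a ligase of DNA end resection, was at 506 and 549 RPM in knockout libraries, against 517 and 562 RPM in heterozygous libraries. Rnf212, a gene of meiotic crossover formation, was at 3.26 and 2.04 RPM in knockout libraries, against 2.08 and 1.54 RPM in heterozygous libraries. Of the 8 tested members of the group, Rnf168 alone lay above and Rnf40 alone below the heterozygous libraries in both knockout libraries (23.5% and 15% of all genes lay so), and the median log2 difference was 0.22.

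Beyond the Rnf genes, 25 genes of the chromatin ubiquitin pathway of RNF8 and RNF168 were read from a list of its sensors, ligases, conjugating enzymes, readers and deubiquitinases, 3 of them members. All 25 were tested and 0 passed in limma, with 1 higher at an unadjusted p under 0.05 (Atm) and 0 lower, where 6.21% and 1.87% of all genes were so. Both knockout libraries lay above the heterozygous libraries for 6 of them and below for 1 (23.5% and 15% of all genes lay so), and the median log2 difference was 0.11, against 0.07 over all genes. Mdc1, the adaptor that recruits RNF8 to breaks, was at 103 and 102 RPM in knockout libraries, against 107 and 101 RPM in heterozygous libraries. Trp53bp1, the reader 53BP1, was at 145 and 144 RPM in knockout libraries, against 120 and 148 RPM in heterozygous libraries. The groups overlapped for both of these genes.

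The 4 genes of that list with the smallest p were Atm, H2afx, Fam175a and Uimc1. Atm, the kinase that starts break signalling, was at 6.33 and 11.4 RPM in knockout libraries, against 4.50 and 1.98 RPM in heterozygous libraries, with an adjusted p of 0.585 in limma. H2afx, the gene of the histone variant that ATM phosphorylates, was at 4.58 and 3.02 RPM in knockout libraries, against 9.01 and 6.41 RPM in heterozygous libraries, with an adjusted p of 0.628 in limma. Neither gene passed, and they differed in opposite directions. Fam175a, the Abraxas scaffold, was at 4.11 and 2.04 RPM in knockout libraries, against 1.73 and 0.236 RPM in heterozygous libraries. Uimc1, the ubiquitin reader RAP80, was at 12.5 and 13.0 RPM in knockout libraries, against 7.79 and 8.03 RPM in heterozygous libraries. Without heterozygote 1 the log2 differences were 2.099 for Atm and 3.62 for Fam175a. Without heterozygote 2 the log2 differences were 0.91 for Atm and 0.74 for Fam175a, against 1.51 and 2.18 on all 4 libraries. Over the alternatives that kept all 4 libraries the adjusted p was lowest with voom, at 0.213 for Atm and for Fam175a. It was highest in limma after quantile scaling, at 0.6605 and 0.717.

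The SUMO-linked ligases come next. Rnf4 binds chains of the ubiquitin-like protein SUMO and ubiquitylates the proteins that carry them. It was at 324 and 274 RPM in knockout libraries, against 159 and 269 RPM in heterozygous libraries, means of 299 ± 35.1 and 214 ± 77.9 RPM (SD, n = 2 each). Heterozygote 1 was the low library, while heterozygote 2 lay within 5 RPM of knockout 2. The log2 difference was 0.53 ± 0.27 (SE, 95% interval −0.07 to 1.12), with an adjusted p of 0.635 in limma and an exact two-sided permutation p of 0.333. Without heterozygote 2 the log2 difference was 0.90, and without heterozygote 1 it was 0.15. Over the alternatives that kept all 4 libraries the adjusted p ran from 0.512 (voom) to 0.798 (limma, no variance trend).

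Rnf111 (Arkadia), a SUMO-targeted ligase of TGF-β signalling, was at 23.1 and 30.1 RPM in knockout libraries, against 55.4 and 33.3 RPM in heterozygous libraries. Its log2 difference was −0.70 ± 0.34 (SE), with an adjusted p of 0.628 in limma, and it was −0.34 without heterozygote 1 and −1.07 without heterozygote 2. Rnf4 and Rnf111 thus had differences of opposite sign, and in both heterozygote 1 was the library furthest from the others. Of 21 genes of SUMO conjugation and removal, 2 of them members, 20 were tested and 0 passed in limma, with 1 higher and 1 lower at an unadjusted p under 0.05 (6.21% and 1.87% of all genes were so) and a median log2 difference of 0.00. Senp5, a SUMO protease, was at 5.67 and 7.90 RPM in knockout libraries, against 17.5 and 11.1 RPM in heterozygous libraries. Sumo2 was at 18.5 and 24.7 RPM in knockout libraries, against 14.4 and 9.63 RPM in heterozygous libraries. The groups did not overlap for either gene. Of the 20 tested, 3 lay above and 3 below the heterozygous libraries in both knockout libraries (23.5% and 15% of all genes lay so).

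The 4 germ cell members without a membrane span had a median of 75.8 RPM per kb, the highest of the role groups. They were grouped for known germ cell roles, so a high level in these cells is built into the grouping. Rnf141 among them was at 6.91 RPM per kb. Rnf151 was at 558 and 413 RPM in knockout libraries, against 273 and 405 RPM in heterozygous libraries, means of 485 ± 103 and 339 ± 93.0 RPM (SD, n = 2 each). The groups were separated by 8 RPM between knockout 2 and heterozygote 2, and heterozygote 1 was again the low library. The log2 difference was 0.53 ± 0.25 (SE), with an adjusted p of 0.626 in limma. Without heterozygote 2 it was 0.81, and without heterozygote 1 it was 0.25. Over the alternatives that kept all 4 libraries the adjusted p ran from 0.422 (voom) to 0.784 (limma, no variance trend).

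Rnf141 (also known as Znf230), a testis-expressed gene, had close values within each group. It was at 82.5 and 86.0 RPM in knockout libraries, against 58.9 and 56.7 RPM in heterozygous libraries, a ratio of means of 1.46. Its log2 difference was 0.54 ± 0.26 (SE), with an adjusted p of 0.626 in limma. Rnf17 was at 297 and 565 RPM in knockout libraries, against 505 and 327 RPM in heterozygous libraries. Knockout 2 and heterozygote 1 were the high libraries of Rnf17, and the groups overlapped. The summed level of the 6 spermatocyte markers was also highest in these libraries, at 227 and 373 RPM in knockout libraries, against 351 and 192 RPM in heterozygous libraries, but not every marker followed the sum. Dmc1, for instance, was at 8.32 and 7.01 RPM in knockout libraries, against 10.2 and 8.03 RPM in heterozygous libraries. The part of these markers in the values of Rnf17 was not tested. In bulk samples such as these, a different share of cells of a type and a different amount of RNA per cell cannot be told apart. Rnf32 was at 538 and 534 RPM in knockout libraries, against 693 and 498 RPM in heterozygous libraries, with overlapping groups.

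**Figure D3:**
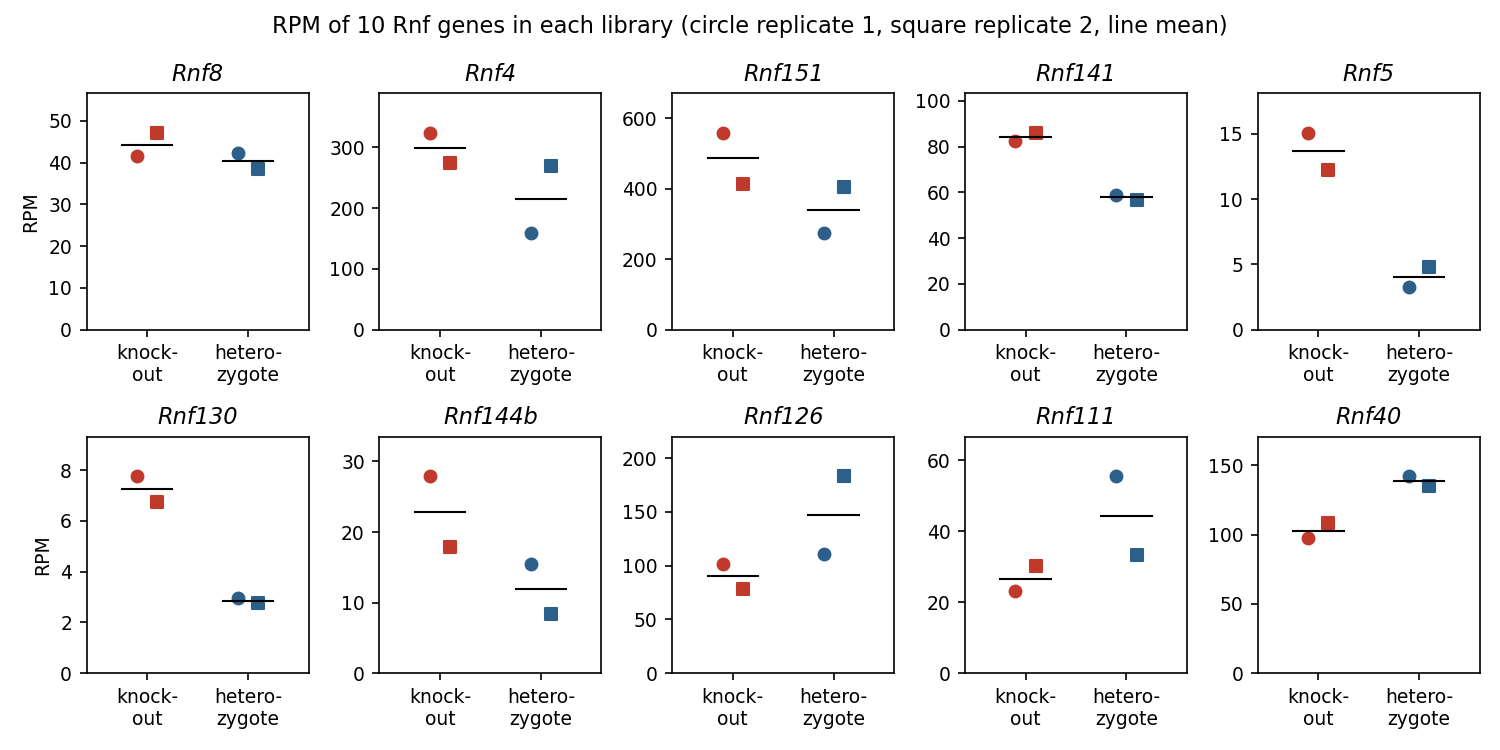
RPM of 10 Rnf genes in each library; red points are knockout and blue points heterozygous libraries, circles replicate 1, squares replicate 2, and lines the mean of 2. Rnf8 overlaps between the groups and the other 9 genes do not. All of these but Rnf4 were picked from members whose groups do not overlap (above for 23.5% and below for 15% of all tested genes). For Rnf4 and Rnf151 heterozygote 2 lies close to knockout 2.

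Among the 8 RING-between-RING members, which pass ubiquitin over a cysteine of their own, 7 were tested. Rnf19a was at 251 and 275 RPM in knockout libraries, against 353 and 277 RPM in heterozygous libraries. Rnf216, which is known for a role in male fertility in mice, was at 138 and 176 RPM in knockout libraries, against 136 and 164 RPM in heterozygous libraries. Rnf31, a subunit of the ligase that makes linear ubiquitin chains, was at 4.82 and 3.02 RPM in knockout libraries, against 5.02 and 3.84 RPM in heterozygous libraries. The median log2 difference of the 7 was −0.20, with 2 positive and 5 negative. Rnf144b was the exception in size. It was at 27.9 and 17.9 RPM in knockout libraries, against 15.4 and 8.33 RPM in heterozygous libraries, a log2 difference of 0.98 ± 0.42 (SE) with an unadjusted p of 0.0388 and an adjusted p of 0.596 in limma. Its log2 difference was 1.42 without heterozygote 1 and 0.54 without heterozygote 2, and it passed in neither.

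The 9 members with a protease-associated (PA) domain and a membrane span, ligases of endosomes and related membranes, were all tested, and 6 had a positive and 3 a negative difference. Rnf130 was at 7.75 and 6.74 RPM in knockout libraries, against 2.94 and 2.78 RPM in heterozygous libraries, means of 7.25 ± 0.712 and 2.86 ± 0.118 RPM (SD, n = 2 each). Its log2 difference was 1.34 ± 0.50 (SE), with an unadjusted p of 0.0227 and an adjusted p of 0.585 in limma. Rnf128 (GRAIL, a ligase known from T cells) and Rnf150 were rare. Rnf128 was at 1.61 and 2.48 RPM in knockout libraries, against 0 and 0.679 RPM in heterozygous libraries. Rnf150 was at 1.56 and 2.57 RPM in knockout libraries, against 0 and 0.650 RPM in heterozygous libraries. For both, heterozygote 1 had no read, and 3 reads there would be 0.520 RPM, so their log2 differences of 2.62 and 2.65 depend on the value the table gives to 0 reads. Without heterozygote 1 the log2 difference of Rnf150 was 1.62 and that of Rnf128 was 1.56. These 3 genes and Rnf144b were higher in the libraries in which the summed macrophage markers were higher (404 and 139 RPM in knockout libraries, against 40.9 and 41.1 RPM in heterozygous libraries), and the part of such cells in these values was not tested. Within the knockout group, Rnf130 and Rnf144b were higher in knockout 1, as were the markers, while Rnf128 and Rnf150 were higher in knockout 2.

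Rnf133 and Rnf148 are intronless spermatid genes of the PA group, and their RING stretches above are alike. Rnf133 was at 103 and 95.4 RPM in knockout libraries, against 62.5 and 122 RPM in heterozygous libraries. Rnf148 was at 42.8 and 26.9 RPM in knockout libraries, against 14.9 and 32.1 RPM in heterozygous libraries. Heterozygote 1 was the low library of both, and the groups overlapped for both. Per kb the mean of Rnf133 was 2.83 times that of Rnf148. Both lie inside the listed span of Cadps2 on the same strand, which was at 165 and 154 RPM in knockout libraries, against 111 and 179 RPM in heterozygous libraries, also lowest in heterozygote 1. No source used here says whether reads of these genes were counted for Cadps2 as well.

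Rnf5, a ligase of endoplasmic reticulum quality control, had the smallest p of all members. It was at 15.1 and 12.2 RPM in knockout libraries (319 and 138 reads), against 3.29 and 4.79 RPM in heterozygous libraries (19 and 162 reads), means of 13.7 ± 2.0 and 4.04 ± 1.06 RPM (SD, n = 2 each). The ratio of means was 3.38, and the gap between the groups exceeded the gap within either. The log2 difference was 1.78 ± 0.45 (SE, 95% interval 0.79 to 2.76), with an unadjusted p of 0.00224 and an adjusted p of 0.382 in limma. Leaving out heterozygote 1 gave 1.51, and leaving out heterozygote 2 gave 2.05. Over the alternatives that kept all 4 libraries the adjusted p ran from 0.0711 (limma, no filter) to 0.555 (limma, quantile scaling).

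Rnf5 shares 24.7% of its exon bases with Gm20463 on the other strand, and the protocol keeps no strand, so their reads cannot be told apart. Gm20463 was at 3.36 and 3.28 RPM in knockout libraries, against 1.73 and 0.9748 RPM in heterozygous libraries, with the same direction as Rnf5. The macrophage markers named above were also higher in knockout libraries. Within the knockout group they were higher in knockout 1, as was Rnf5, and their part in the difference of Rnf5 was not tested.

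Rnf185, the closest relative of Rnf5 and a ligase of the same membrane, lay the other way. It was at 37.0 and 36.6 RPM in knockout libraries, against 56.3 and 48.2 RPM in heterozygous libraries, a log2 difference of −0.50 ± 0.28 (SE) with an adjusted p of 0.659 in limma. Per kb, Rnf185 at 15.3 RPM was above Rnf5 at 5.97 RPM. Among the 14 tested members of the other membrane-spanning group, 7 differences were positive and 7 negative, with a median of 0.09. Rnf139, a sterol-regulated ligase of the endoplasmic reticulum, was at 103 and 144 RPM in knockout libraries, against 155 and 135 RPM in heterozygous libraries. It shares 22.3% of its exon bases with Tatdn1 on the other strand, which was at 122 and 159 RPM in knockout libraries, against 180 and 151 RPM in heterozygous libraries, in the same order of libraries. Tatdn1 was thus at 118% and 110% of Rnf139 in knockout libraries, against 116% and 112% in heterozygous libraries. How much of the Rnf139 level came from reads of Tatdn1 cannot be told in these values, and the 19 members at 100 RPM or more include Rnf139 as listed.

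Among the 26 other soluble members, 22 were tested, and 11 differences were positive and 11 negative. Rnf126, a ligase that works with BAG6 in protein quality control, was the member lower at an unadjusted p under 0.05. It was at 102 and 78.4 RPM in knockout libraries, against 111 and 183 RPM in heterozygous libraries, means of 90.1 ± 16.6 and 147 ± 50.8 RPM (SD, n = 2 each). Heterozygote 2 was the high library, and heterozygote 1 exceeded knockout 1 by less than 10 RPM. The log2 difference was −0.68 ± 0.29 (SE), with an unadjusted p of 0.0422 and an adjusted p of 0.602 in limma. Without heterozygote 1 it was −1.04, and without heterozygote 2 it was −0.32. Over the alternatives that kept all 4 libraries the adjusted p ran from 0.285 (voom) to 0.725 (limma, no variance trend).

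Several soluble members overlapped between the groups. Rnf187 was at 140.4 and 118 RPM in knockout libraries, against 132 and 162 RPM in heterozygous libraries. Rnf125, known for the control of antiviral RNA sensors, was at 97.5 and 148 RPM in knockout libraries, against 124 and 116 RPM in heterozygous libraries. Rnf181 was at 172 and 157 RPM in knockout libraries, against 143 and 168 RPM in heterozygous libraries. Rnf41, a ligase of ErbB3 receptor turnover, was at 121 and 89.5 RPM in knockout libraries, against 45.9 and 101 RPM in heterozygous libraries. Heterozygote 1 was the low library of Rnf41. Without heterozygote 2 its log2 difference was 1.18, against 0.61 with an adjusted p of 0.677 in limma on all 4 libraries. Without heterozygote 1 its log2 difference was 0.04, so the value turns on which heterozygous library is kept. Over the alternatives tried the log2 difference of Rnf41 ran from 0.04 to 1.18.

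Members further down in both directions did not pass either. Rnf167, of the PA group and known from endosomes and lysosomes, was at 39.2 and 24.2 RPM in knockout libraries, against 44.5 and 40.1 RPM in heterozygous libraries. Rnf182 was at 1.70 and 1.154 RPM in knockout libraries, against 3.29 and 2.36 RPM in heterozygous libraries. Rnf13 was at 17.6 and 19.0 RPM in knockout libraries, against 27.5 and 13.2 RPM in heterozygous libraries. Rnf43, which removes Wnt receptors from the cell surface, was at 2.36 and 2.22 RPM in knockout libraries, against 2.60 and 1.33 RPM in heterozygous libraries. The 10 members not tested were Rnf135, Rnf183, Rnf208, Rnf222, Rnf113a1, Rnf39, Rnf186, Rnf217, Rnf207 and Rnf122. Of these, Rnf186 had 0 reads in all 4 libraries, which is not detectable at this depth and allows up to 0.142 and 0.266 RPM in knockout libraries, against 0.520 and 0.0886 RPM in heterozygous libraries (3 reads, counting error only).

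**Figure D4:**
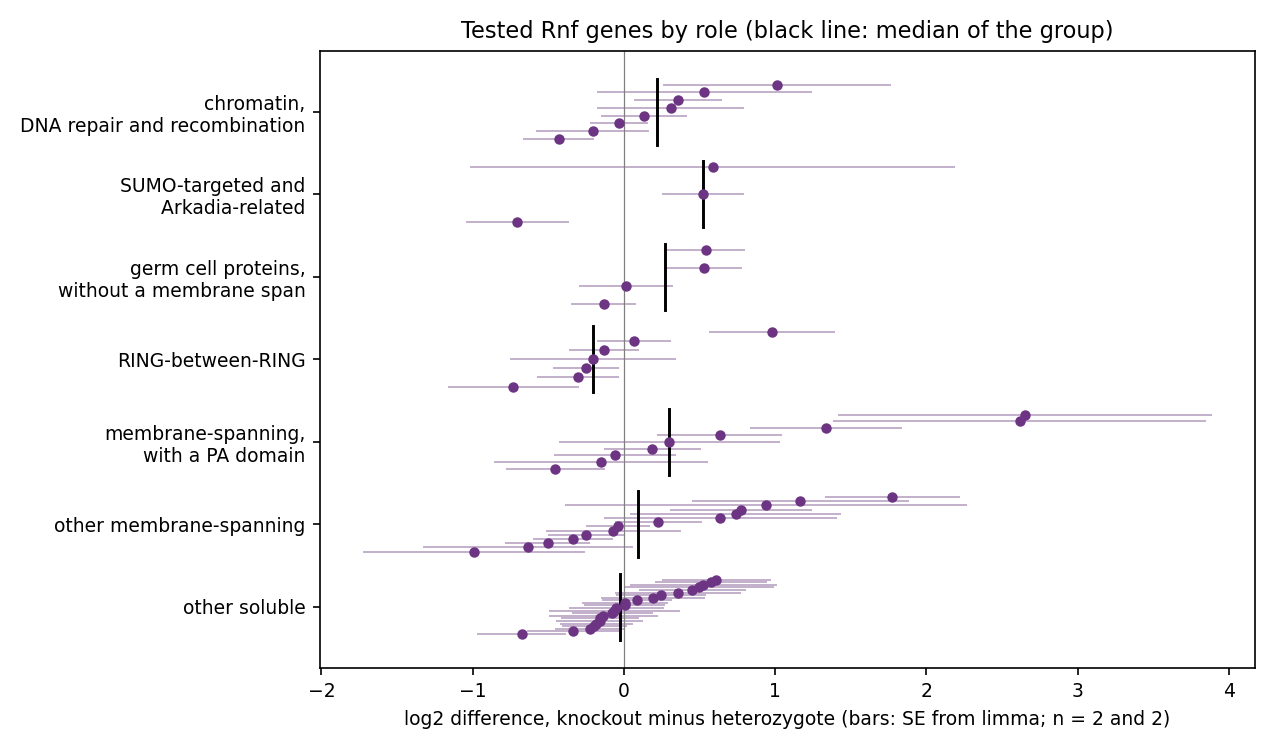
Log2 difference (knockout minus heterozygote) of the 67 tested Rnf genes by role, points with the standard error from limma (n = 2 and 2), and black lines at each group's median. The group medians lie between −0.20 and 0.53, and the widest bars belong to genes with few reads.

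RING ligases work with ubiquitin-conjugating enzymes, of which 24 genes were read from a list of those known to pair with RING ligases. Of these, 22 were tested and 0 passed in limma, with 3 higher and 3 lower at an unadjusted p under 0.05 (6.21% and 1.87% of all genes were so) and a median log2 difference of −0.11. Ube2m, the conjugating enzyme of the ubiquitin-like protein NEDD8, was at 9.92 and 11.7 RPM in knockout libraries, against 24.1 and 22.9 RPM in heterozygous libraries, with an adjusted p of 0.512 in limma. Ube2t, of the Fanconi anaemia pathway, was at 22.02 and 22.5 RPM in knockout libraries, against 13.2 and 4.64 RPM in heterozygous libraries. Ube2e2 was at 54.0 and 56.2 RPM in knockout libraries, against 37.4 and 19.5 RPM in heterozygous libraries. Without heterozygote 1 the log2 differences were 2.26 for Ube2t and 1.496 for Ube2e2. Without heterozygote 2 the log2 differences were 0.76 for Ube2t and 0.56 for Ube2e2, and on all 4 libraries they were 1.51 and 1.03, with adjusted p of 0.538 and 0.550 in limma. Over the alternatives that kept all 4 libraries the adjusted p of Ube2t ran from 0.0567 (limma, no filter) to 0.610 (limma, median-ratio scaling). That of Ube2e2 ran from 0.13 to 0.610 in the same settings. Cdc34, which serves cullin ligases, was at 43.6 and 23.5 RPM in knockout libraries, against 46.2 and 73.0 RPM in heterozygous libraries. Ube2n, which builds the chains of the RNF8 pathway, was at 235 and 271 RPM in knockout libraries, against 263 and 292 RPM in heterozygous libraries, and its groups overlapped. Ube2j1, an enzyme of the endoplasmic reticulum known for a role in spermatid development in mice, was at 329 and 320.1 RPM in knockout libraries, against 236 and 407 RPM in heterozygous libraries.

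The sequences around the start sites were set beside the levels, since many genes that are specific to spermatids start from sequence poor in CpG. RefSeq start-site windows (GRCm38.p6, 250 bases before to 50 after the start) matched 60 of 77 members. With CpG-rich defined as an observed over expected CpG ratio above 0.6 and a GC content above 50%, 44 of the 60 were CpG-rich (73.3%), against 46.2% of the 16010 listed genes with a window. Windows that missed either threshold are called CpG-poor. Among tested genes with a window the shares were 76.9% of 52 members, against 60.8% of 10521 genes. Of the 12 highest members per kb, 8 had a window and 2 of these were CpG-poor, Rnf151 (ratio 0.139) and Rnf133 (ratio 0.104). Rnf148 (ratio 0) and Rnf220 (ratio 0.122) were CpG-poor at 23.5 and 28.8 RPM per kb. Many CpG-poor members were low. Rnf20 (ratio 0.0784) was at 1.12 RPM per kb, and Rnf222, Rnf208, Rnf183, Rnf186, Rnf169, Rnf43, Rnf182 and Rnf180 were under 1 RPM per kb. The CpG-poor members Rnf185, Rnf146 and Rnf168 lay between. Rnf168 (ratio 0.909), Rnf169 (ratio 0.838) and Rnf43 (ratio 0.634) are called CpG-poor for their GC content alone, at 46.3%, 49.7% and 46.7%.

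The 150 bases before the start site are shown for 4 members to contrast both kinds. The upper 2 belong to Rnf133 and Rnf148, and the lower 2 to Rnf7 and Rnf126. They were read from the RefSeq windows 5′ to 3′ on the strand of the gene, CG is in capitals, and no GENCODE M21 exon overlaps them.
Rnf133 (chr6:23650306-23650455, minus strand, 0 CpG): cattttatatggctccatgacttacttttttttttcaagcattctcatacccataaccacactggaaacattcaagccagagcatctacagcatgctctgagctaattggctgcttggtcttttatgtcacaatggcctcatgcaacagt
Rnf148 (chr6:23655137-23655286, minus strand, 0 CpG): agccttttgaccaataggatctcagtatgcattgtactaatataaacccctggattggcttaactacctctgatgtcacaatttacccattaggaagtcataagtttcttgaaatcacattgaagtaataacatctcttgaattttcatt
Rnf7 (chr9:96478676-96478825, minus strand, 13 CpG): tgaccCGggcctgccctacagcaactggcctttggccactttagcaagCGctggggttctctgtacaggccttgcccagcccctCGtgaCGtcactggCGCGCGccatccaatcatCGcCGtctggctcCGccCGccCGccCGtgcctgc
Rnf126 (chr10:79766953-79767102, minus strand, 15 CpG): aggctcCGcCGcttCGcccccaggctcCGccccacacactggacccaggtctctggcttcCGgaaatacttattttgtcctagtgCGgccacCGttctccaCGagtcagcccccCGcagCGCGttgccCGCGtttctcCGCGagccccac
The stretches of Rnf133 and Rnf148 hold no CG, while those of Rnf7 and Rnf126 hold 13 and 15. The motif TGACGTCA, the full cAMP response element, reads the same on both strands and was found in the window of 1 of 60 members (1.67%, against 2.32% of listed genes). That member is Rnf7, where it is printed as tgaCGtca. A match is a description of the letters and does not show that a factor binds there.

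**Figure D5:**
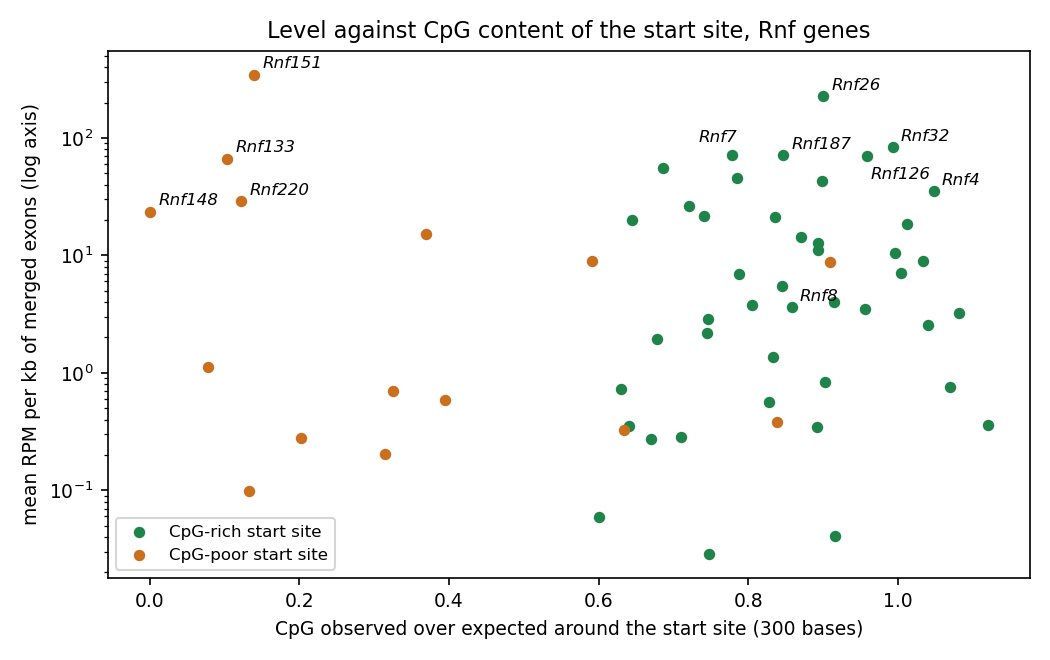
Mean level over the 4 libraries (RPM per kb, log axis) against the observed over expected CpG ratio of the start-site window, for the 59 Rnf genes with a window and a level above 0; green points are CpG-rich and orange points CpG-poor. Some orange points have a high ratio and missed only the GC threshold. Rnf151, Rnf133, Rnf148 and Rnf220 combine a ratio under 0.2 with a level above 20 RPM per kb, while Rnf20 and Rnf222 combine it with a low level. The value of Rnf26 largely equals that of Usp2.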

How the data were processed

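Gene expression was measured in 4 libraries of sorted mouse round spermatids, 2 labelled knockout and 2 labelled heterozygote. Per the labels' protocols, sorted cells were lysed and amplified with Smart-seq2, and libraries were made with Nextera XT, which keeps neither strand nor molecular identifiers. The submitters' processing notes name the mm10 build, HISAT2 2.1.0, Trim Galore 0.6.6 and FastQC 0.11.8. Not given in the sources used here are the sort gate, the counting tool, its annotation and how it treated overlapping genes. The authors deposited log2 RPM values (log2 of reads scaled to the library total) for 25965 genes, with no length adjustment.

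Within each library the values step by whole reads, with 0 reads listed as 0.9 of a read, so reads were recovered, and with a tolerance of 0.01 read 99.7% to 100.0% of values were whole. The totals set the precision, and counting limits cover counting error only. The 15888 genes that reached 1 RPM in 2 or more libraries were tested two-sided as knockout minus heterozygote with limma 3.58.1 (R 4.3.3) on the deposited values, using moderated variances with a trend on the mean level and a Benjamini-Hochberg threshold of 0.05. SD is over libraries and SE is from the fit. The code was tested on simulated data. Exon lengths, coding sequences and exon overlaps came from GENCODE M21, in which all 77 members were matched, and start-site windows from RefSeq. Of the 77 members, 27 share exon bases with another annotated gene and 17 of these with a listed one, so their reads are uncertain to that extent. These counts leave out overlaps of listed spans alone, such as those of Rnf26 with Usp2 and of Rnf133 and Rnf148 with Cadps2. The listed span of 12 members reaches past the GENCODE M21 gene, by 2 bases for Rnf144a up to 29304 for Rnf26 and 58368 for Rnf8. Python 3.11.15 was used for tables (numpy 2.4.6, pandas 2.3.3) and for plots (matplotlib 3.10.9).

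The text names Rnf8 and Rnf4, the 12 members with the highest mean RPM per kb, up to 6 members per direction with the smallest p among tested members whose groups do not overlap, and up to 4 genes of each pathway list with the smallest p. Other genes are named for their role and were chosen after their values were seen, as were the overlapping genes Usp2, Ftsjd2, 1110021J02Rik, Gm20463, Cadps2 and Tatdn1. The members and lists were chosen with earlier results of these data known, so no list was tested. No label used here links same-numbered libraries of the groups beyond the number. Alternatives were no filter, a filter of 5 RPM, log2(RPM + 1), median-ratio and quantile scaling, no variance trend, voom on the recovered reads, a replicate block and leaving out each library. The gene lengths of the longest coding transcripts were added after the data were seen. The values of some single genes are not reported here.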

Additional observations from a re-analysis of the deposited data

How the results depend on the processing

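Under the 12 alternatives, the number of all genes passing in limma (0 on all 4 libraries as deposited, with 1283 at an unadjusted p under 0.05) was 180 with no filter, 1 on log2(RPM + 1), 66 with the replicate block, and 0 to 558 with 1 library left out. No Rnf gene passed in any alternative that kept all 4 libraries. Some Rnf genes passed with a heterozygous library left out, as did many other genes, and those passes were not read as results. A fit with a group of 1 library assumes that it varies like the other group. The median log2 difference of the tested members (0.01) was −0.0313 with a filter of 5 RPM, −0.0450 with median-ratio scaling, −0.0243 with quantile normalization and −0.0042 to 0.15 with 1 library left out. The 3 pathway lists gave 0 to 2 (RNF8 and RNF168), 0 to 1 (SUMO) and 0 to 2 (conjugating enzymes) genes passing with 1 library left out. The log2 difference ran from 0.15 to 0.90 for Rnf4 and from 0.04 to 0.22 for Rnf8 with 1 library left out. Small differences reversed for Rnf125 (−0.0520 with median-ratio scaling, −0.00979 with voom) and Rnf17 (−0.0450 with median-ratio scaling, −0.0243 with quantile normalization). With 1 library left out, ranges that cross 0 were −0.22 to 0.15 for Rnf26, −0.30 to 0.31 for Rnf125, −0.45 to 0.48 for Rnf17, −0.0916 to 0.0290 for Rnf138, −0.37 to 0.10 for Rnf32, −0.75 to 0.0764 for Rnf7, −0.29 to 0.67 for Rnf133 and −0.0340 to 0.21 for Rnf181. The cause of these shifts was not tested. The correlation of the deviations of same-numbered libraries was −0.076. Such a correlation cannot tell whether same-numbered libraries share a batch, so their pairing is not settled. The replicate block gave 0 Rnf genes passing. The depth of heterozygote 1, where 3 reads are 0.520 RPM, limits what can be seen of the rarest members.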
